A study of Chlorocebus aethiops with 12 samples.

Results

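Clock genes were followed in COS-1 cells treated with the glucocorticoid dexamethasone (Dex). They were chosen as the probes whose transcript accession is one of 11 human clock accessions, for PER1, PER2 (a pair of variants), PER3, CRY1, CRY2, NR1D1, NR1D2, ARNTL, CLOCK and DBP. Of these, 9 accessions were matched, by 17 of the 41000 probes, and the second PER2 variant and ARNTL were not analysed here. All 17 probes passed the filter on dim signals, so the 9 accessions belong to the 23757 tested. Gene symbols are those given with the accessions, since the arrays list accessions without names.

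COS-1 cells derive from the kidney of the African green monkey and grow as fibroblast-like cells. All groups carried transfected glucocorticoid receptor (GR), the nuclear receptor that Dex activates. The 4 groups were GR+MDFIC cells with Dex, GR+MDFIC cells with vehicle, GR cells with Dex and GR cells with vehicle, with 3 replicates in each that the labels call biological. MDFIC is the MyoD family inhibitor domain containing protein. Dex was given at 100 nM for 6 h, starting 48 h after transfection in medium with charcoal-stripped serum. The comparisons ask how Dex changed the transcripts with GR present, and whether MDFIC altered that change. The expression vectors and the share of cells that took them up are not given in the sources used here, and the levels of GR and MDFIC were not analysed here. The probes were designed on human transcripts, and how closely the monkey transcripts match them was not analysed here.

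The mammalian clock is a transcriptional feedback loop. CLOCK and ARNTL (BMAL1) activate the PER and CRY genes, whose proteins return to the nucleus and inhibit CLOCK and ARNTL. A second loop runs through the nuclear receptors NR1D1 and NR1D2 (REV-ERB alpha and beta), which are activated by CLOCK and ARNTL and repress ARNTL, and DBP is an output gene of the same activators. Glucocorticoids reset clocks in peripheral cells, and PER1 is a known direct target of GR.

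Each value is a log2 signal relative to the 75th percentile of its array, so that 0 stands for that percentile. Per array, 70.3% to 75.2% of spots were flagged as well above background by the Agilent Feature Extraction software. Across the transcripts tested, the lowest correlation between replicates of a group was 0.980. All 17 clock probes were well above background on all 12 arrays. The arrays lay on 3 slides, and treatment was not spread evenly over them. Slide 3 held all 3 GR+MDFIC Dex arrays and 1 GR+MDFIC vehicle array, and it was read on another scanner. The 75th percentile there averaged 386, while it averaged 850 for slide 1 and 868 for slide 2. Slide 3 also stood apart on principal component 1, which held 46.9% of the variance. Slide 1 held 1 GR Dex array and the 3 GR vehicle arrays, and slide 2 held 2 arrays of GR Dex and 2 of GR+MDFIC vehicle. A Dex effect is therefore also given within 1 slide, which is the value of a fit with slide as a block: slide 3 for GR+MDFIC cells and slide 1 for GR cells. RNA was taken from whole cultures, so fewer cells with a transcript and less of it per cell cannot be told apart.

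Dex raised PER1 and CRY2 and lowered NR1D1 and NR1D2 in both GR+MDFIC and GR cells. PER3 fell with Dex in GR+MDFIC cells. PER2, CRY1, CLOCK and DBP did not pass the test in either. In GR+MDFIC cells 5 of the 9 clock transcripts changed, 2 upward and 3 downward, where 13.5% of all transcripts tested were called (6.60% higher and 6.94% lower). In GR cells 4 of the 9 changed, 2 upward and 2 downward, where 7.17% of all transcripts were called (4.40% higher and 2.77% lower). These shares of all transcripts moved when 1 array was left out. For GR+MDFIC cells the share was 26.6% without GR+MDFIC vehicle replicate 3, the vehicle array on slide 3. It was 7.62% and 8.28% without GR+MDFIC vehicle replicates 1 and 2, and 8.82% without GR+MDFIC Dex replicate 3. The same 5 clock transcripts were called in each of these fits. For GR cells the share was 4.51% and 4.69% without GR vehicle replicates 3 and 1, and 4.59% and 4.60% without GR Dex replicates 1 and 2, and the same 4 clock transcripts were called each time. The median size of the Dex effect over the 9 was 0.34 on the log2 scale in GR+MDFIC cells, against 0.15 over all transcripts tested. In GR cells it was 0.35, against 0.11 over all transcripts. The signed medians over the 9 were -0.20 in GR+MDFIC cells and -0.030 in GR cells, since rises and falls stood side by side, and over all transcripts they were -0.0070 and 0.0074. Calls are at a limma Benjamini-Hochberg adjusted p under 0.05 over all transcripts tested.

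**Figure D1:**
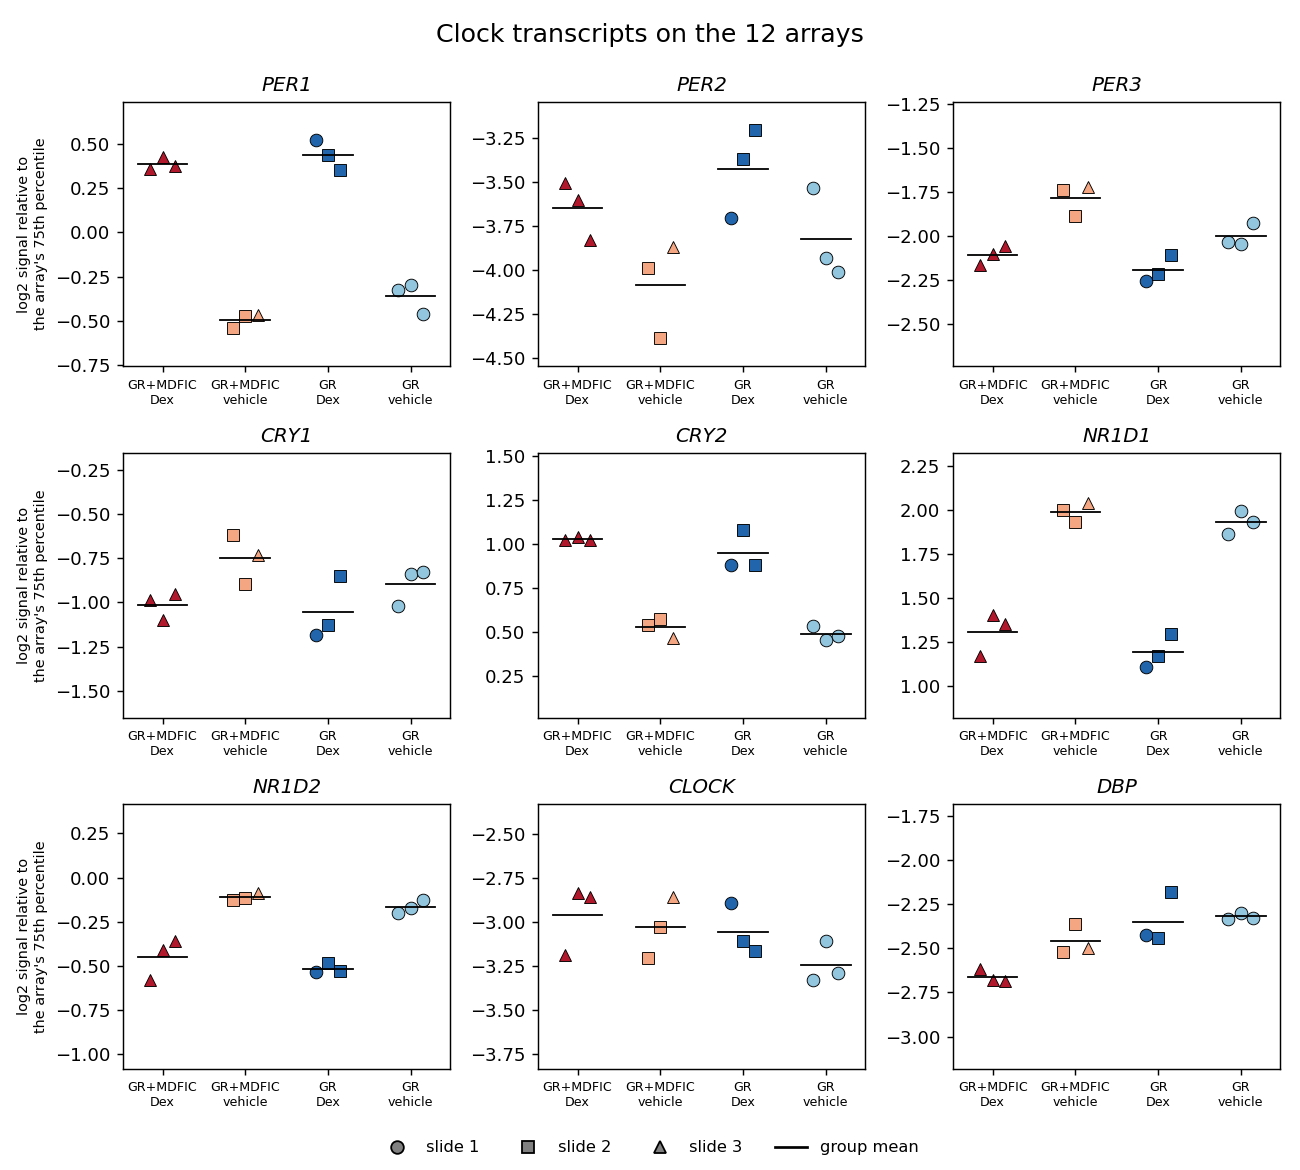
Log2 signal relative to the 75th percentile of the array (y axis) for the 9 clock transcripts on the 12 arrays. Points are arrays, their shapes are slides, and bars are the means of 3 replicates; every panel spans the same log2 range. The Dex arrays of PER1 and CRY2 lie above all their vehicle arrays and those of NR1D1 and NR1D2 below them.

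PER1 (NM_002616), a repressor of CLOCK and ARNTL, had the largest Dex effect of the 9 in both kinds of cells. In GR+MDFIC cells it read 0.36, 0.43 and 0.38 with Dex, against -0.54, -0.47 and -0.47 with vehicle. In GR cells it read 0.52, 0.44 and 0.35 with Dex, against -0.32, -0.30 and -0.46 with vehicle. Every Dex array was above every vehicle array. The log2 rise was 0.88 ± 0.059 in GR+MDFIC cells (SE, limma adjusted p = 1.51e-05), or 1.85-fold. It was 0.80 ± 0.059 in GR cells (SE, limma adjusted p = 3.62e-05), or 1.74-fold. Within slide 3 the rise in GR+MDFIC cells was 0.86 (limma adjusted p with slide as a block = 0.00148), and within slide 1 the rise in GR cells was 0.89 (adjusted p = 0.00146). Ordered from the largest rise among the 23757 transcripts, PER1 stood at place 1234 in GR+MDFIC cells and at place 509 in GR cells. Its spot signal was 14.2 to 53.2 times the local background.

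PER2 (NM_022817), the second period gene and a repressor like PER1, was dim, at 2.40 to 4.73 times the local background, and scattered more between replicates. On the GR+MDFIC arrays it stood at -3.51, -3.60 and -3.83 with Dex, against -3.99, -4.39 and -3.87 with vehicle. These groups lay apart, with the highest vehicle array just under the lowest Dex array. On the GR arrays it stood at -3.71, -3.37 and -3.21 with Dex, against -3.53, -3.93 and -4.01 with vehicle. Here the groups overlapped, with the first Dex array below the first vehicle array. The log2 differences, 0.44 ± 0.18 in GR+MDFIC cells (SE, limma adjusted p = 0.137) and 0.40 ± 0.18 in GR cells (SE, adjusted p = 0.282), did not pass the test. Within 1 slide they were 0.22 and 0.12, under 1 SD of the vehicle replicates (0.27 in GR+MDFIC cells and 0.26 in GR cells).

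PER3 (NM_016831), the third period gene, whose loss affects the core rhythm of mice little, had Dex differences of the opposite sign from PER1. Its GR+MDFIC values were -2.17, -2.11 and -2.06 with Dex, against -1.74, -1.89 and -1.72 with vehicle. Its GR values were -2.26, -2.22 and -2.11 with Dex, against -2.03, -2.05 and -1.92 with vehicle. The Dex arrays were below the vehicle arrays in both kinds of cells. The fall was 1.25-fold in GR+MDFIC cells, a log2 fold of -0.33 ± 0.064 (SE, limma adjusted p = 0.00942). In GR cells the log2 difference of -0.19 ± 0.064 (SE, limma adjusted p = 0.118) did not pass the test. Within 1 slide the differences were -0.39 in GR+MDFIC cells (adjusted p = 0.0669) and -0.26 in GR cells (adjusted p = 0.201), so the call in GR+MDFIC cells was not kept with slide as a block. It was also lost when the 3 probes of PER3 were averaged (-0.23, adjusted p = 0.305). That average includes dim probes, A_23_P201461 at 1.6 to 2.7 and A_24_P230948 at 1.7 to 3.2 times the local background. The probe that stands for PER3 was at 4.5 to 10.5 times.

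CRY2 (NM_021117), a cryptochrome that joins the PER proteins in repressing CLOCK and ARNTL, rose. In GR+MDFIC cells it read 1.02, 1.04 and 1.02 with Dex, against 0.54, 0.57 and 0.47 with vehicle. In GR cells it read 0.88, 1.08 and 0.88 with Dex, against 0.53, 0.45 and 0.47 with vehicle. No Dex array came down to a vehicle array. The rise was 1.41-fold in GR+MDFIC cells, a log2 fold of 0.50 ± 0.059 (SE, limma adjusted p = 0.000595). It was 1.37-fold in GR cells, a log2 fold of 0.46 ± 0.059 (SE, limma adjusted p = 0.00129). Within 1 slide the rises were 0.56 in GR+MDFIC cells (adjusted p = 0.0102) and 0.40 in GR cells (adjusted p = 0.0448), so both calls were kept with slide as a block. They were lost when its 3 probes were averaged, at 0.24 in GR+MDFIC cells (adjusted p = 0.182) and 0.29 in GR cells (adjusted p = 0.201).

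CRY1 (NM_004075), the other cryptochrome repressor, did not rise with CRY2. On the GR+MDFIC arrays it stood at -0.99, -1.10 and -0.95 with Dex, against -0.62, -0.90 and -0.73 with vehicle. On the GR arrays it stood at -1.19, -1.13 and -0.85 with Dex, against -1.02, -0.84 and -0.83 with vehicle. The groups lay apart in GR+MDFIC cells and overlapped in GR cells. The log2 differences of -0.26 ± 0.10 in GR+MDFIC cells (SE, limma adjusted p = 0.117) and -0.16 ± 0.10 in GR cells (SE, adjusted p = 0.470) did not pass the test. Within 1 slide they were -0.28 and -0.29. With its probes averaged, CRY1 was called lower in GR+MDFIC cells (-0.36, adjusted p = 0.0422).

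NR1D1 (NM_021724), a haem-binding receptor that represses ARNTL, had the largest fall of the 9 in both kinds of cells. Its GR+MDFIC values were 1.17, 1.40 and 1.36 with Dex, against 2.00, 1.93 and 2.04 with vehicle. Its GR values were 1.11, 1.17 and 1.30 with Dex, against 1.86, 1.99 and 1.93 with vehicle. The Dex arrays were all below the vehicle arrays. The fall was 1.60-fold in GR+MDFIC cells, a log2 fold of -0.68 ± 0.074 (SE, limma adjusted p = 0.000339). It was 1.67-fold in GR cells, a log2 fold of -0.74 ± 0.074 (SE, limma adjusted p = 0.000278). Within 1 slide the differences were -0.73 in GR+MDFIC cells (adjusted p = 0.00995) and -0.82 in GR cells (adjusted p = 0.00677). Counted from the largest fall, NR1D1 stood at place 1257 in GR+MDFIC cells and at place 267 in GR cells.

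NR1D2 (NM_005126), the paralogue of NR1D1 with the same repressor role, fell by less. In GR+MDFIC cells it read -0.58, -0.41 and -0.36 with Dex, against -0.13, -0.12 and -0.09 with vehicle. In GR cells it read -0.54, -0.48 and -0.53 with Dex, against -0.20, -0.17 and -0.13 with vehicle. Again no Dex array reached a vehicle array. The fall was 1.27-fold in both, with log2 folds of -0.34 ± 0.057 in GR+MDFIC cells (SE, limma adjusted p = 0.00415) and -0.35 ± 0.057 in GR cells (SE, adjusted p = 0.00510). Within 1 slide the differences were -0.37 in both, with adjusted p = 0.0783 in GR+MDFIC cells and 0.0719 in GR cells, so neither call was kept with slide as a block.

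CLOCK (NM_004898), the activator that pairs with ARNTL, gave no call. On the GR+MDFIC arrays it stood at -3.19, -2.84 and -2.86 with Dex, against -3.20, -3.03 and -2.86 with vehicle. On the GR arrays it stood at -2.89, -3.11 and -3.16 with Dex, against -3.33, -3.11 and -3.29 with vehicle. The groups overlapped in both kinds of cells. The log2 differences were 0.069 ± 0.12 in GR+MDFIC cells (SE, limma adjusted p = 0.734) and 0.19 ± 0.12 in GR cells (SE, adjusted p = 0.488). Its signal was 2.67 to 5.64 times the local background.

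DBP (NM_001352), a PAR bZIP transcription factor whose level follows CLOCK and ARNTL activity, gave no Dex call. Its GR+MDFIC values were -2.62, -2.68 and -2.69 with Dex, against -2.52, -2.36 and -2.50 with vehicle. Its GR values were -2.42, -2.44 and -2.18 with Dex, against -2.33, -2.30 and -2.33 with vehicle. The groups lay apart in GR+MDFIC cells, and in GR cells the Dex arrays fell on both sides of the vehicle arrays. The log2 differences were -0.20 ± 0.073 in GR+MDFIC cells (SE, limma adjusted p = 0.0970) and -0.030 ± 0.073 in GR cells (SE, adjusted p = 0.904).

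Counted by arrays rather than by the test, the Dex and vehicle arrays did not overlap for 8 of the 9 in GR+MDFIC cells, 3 higher and 5 lower with Dex, against 32.2% of all transcripts tested (15.9% higher and 16.2% lower). In GR cells they did not overlap for 5 of the 9, 2 higher and 3 lower, against 26.2% of all transcripts (14.3% higher and 11.8% lower). With slide as a block, 3 of the 9 were called in GR+MDFIC cells and 3 in GR cells, PER1, CRY2 and NR1D1 each time, where 3.41% and 3.56% of all transcripts were called. That fit leaves 1 vehicle array on slide 3 and 1 Dex array on slide 1 to carry the comparison, and 6 residual degrees of freedom in place of 8.

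**Figure D2:**
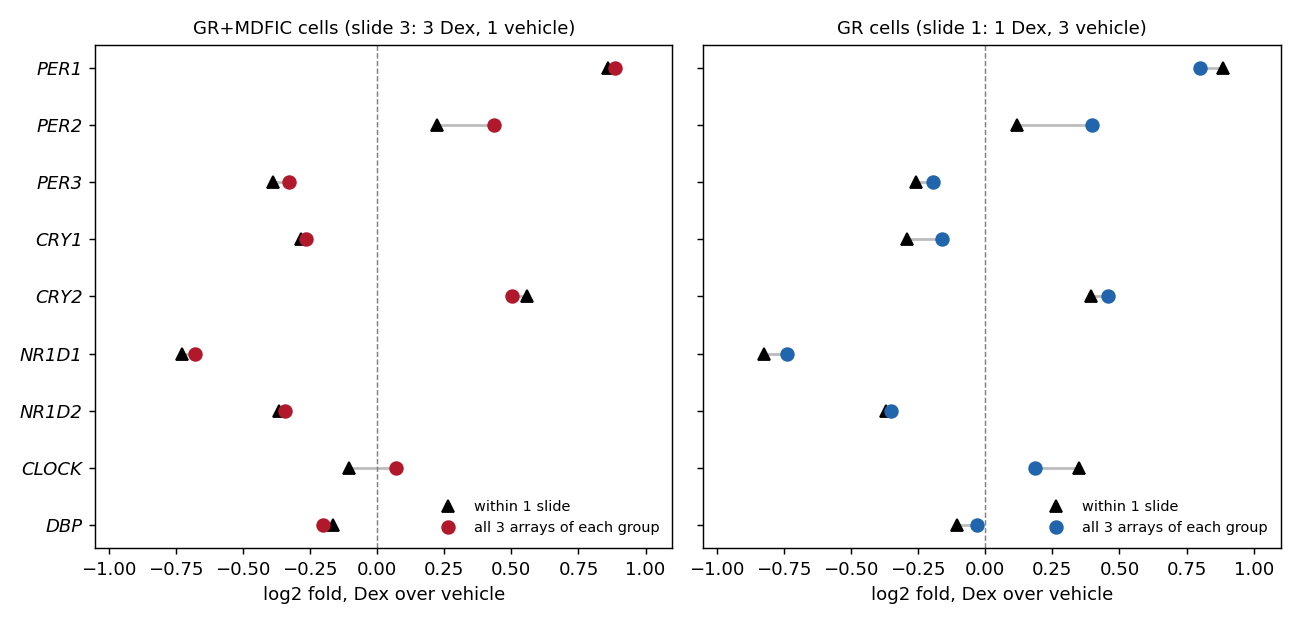
Log2 fold of Dex over vehicle (x axis) for the 9 clock transcripts, from all 3 arrays of each group (circles) and within 1 slide (triangles), in GR+MDFIC cells on the left and GR cells on the right. For PER1, PER3, CRY2, NR1D1, NR1D2 and DBP both measures differ by under 0.1. PER2 and CLOCK move more, and CLOCK changes sign in GR+MDFIC cells. CRY1 moves from -0.16 to -0.29 in GR cells.

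The Dex effects were then set against each other between GR+MDFIC and GR cells as an interaction. None of the 9 differed by this test (limma, 0 called after adjustment and 0 at an unadjusted p under 0.05, smallest unadjusted p = 0.128), where 0.0589% of all transcripts tested were called and 9.85% had an unadjusted p under 0.05. That share of all transcripts rests strongly on single arrays. It was 7.61% without GR+MDFIC vehicle replicate 3, 0.402% and 0.0920% without GR+MDFIC Dex replicates 2 and 3, and 0.00839% to 0.0334% without any other 1 array. In all of these fits 0 of the 9 clock transcripts were called. For PER1 the Dex effect in GR+MDFIC cells minus that in GR cells was 0.083 on the log2 scale, with a 95% interval of -0.11 to 0.27 (adjusted p = 0.741). For CRY2 it was 0.042 (-0.15 to 0.23), for NR1D1 0.057 (-0.18 to 0.29) and for NR1D2 0.0065 (-0.17 to 0.19). In this fit, which leaves slide out, a larger PER1 response in GR+MDFIC cells by up to 0.27, or a smaller one by up to 0.11, lies within its interval. PER3, called in GR+MDFIC cells and not in GR cells, differed by -0.13 (-0.34 to 0.068), so its Dex effect was not shown to differ between them. DBP had the smallest p, at -0.17 (-0.40 to 0.059, adjusted p = 0.586). The intervals were widest for the dim transcripts, at -0.54 to 0.62 for PER2 and -0.51 to 0.28 for CLOCK. The CRY1 interval was -0.43 to 0.22. With slide as a block 0 of the 9 were called, where 0.0842% of all transcripts were. The PER1 difference was then -0.027 ± 0.12 (SE), which also allows a PER1 response smaller by more than 0.11.

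**Figure D3:**
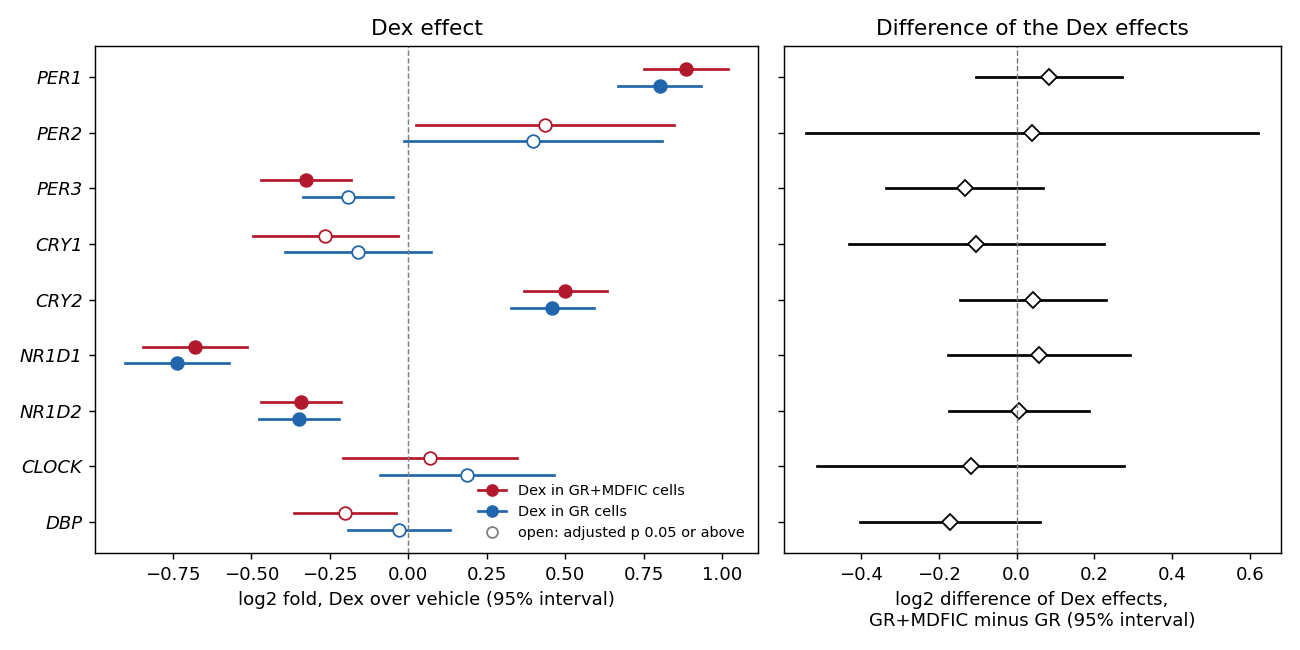
Left, log2 fold of Dex over vehicle for each clock transcript with its 95% interval, in GR+MDFIC cells (red) and GR cells (blue); filled points have a limma adjusted p under 0.05. Right, the Dex effect in GR+MDFIC cells minus that in GR cells with its 95% interval; all 9 intervals include 0.

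MDFIC itself was compared within each treatment. With vehicle, 0 of the 9 were called between GR+MDFIC and GR cells by limma, and 1 had an unadjusted p under 0.05, where 0.884% of all transcripts were called and 17.6% had such a p. That 1 was PER3, at -1.78 ± 0.092 in GR+MDFIC cells and -2.00 ± 0.068 in GR cells (SD, n = 3), a log2 difference of 0.22 ± 0.064 (SE, limma adjusted p = 0.143). All GR vehicle arrays were on slide 1 and no GR+MDFIC vehicle array was, and with slide as a block the PER3 difference was 0.092 (adjusted p = 0.820). With Dex, 1 of the 9 was called, where 5.54% of all transcripts were, 2.90% on the lower side. The share of all transcripts called was 13.0% without GR+MDFIC vehicle replicate 3, 0.401% to 0.518% without any 1 GR Dex array, 0.916% to 1.61% without any 1 GR+MDFIC Dex array and 2.08% to 2.14% without any 1 GR vehicle array. With vehicle it ran from 0.372% without GR vehicle replicate 3 to 2.43% without GR+MDFIC vehicle replicate 3. The clock transcript called with Dex was DBP, at -2.66 ± 0.037 in GR+MDFIC cells and -2.35 ± 0.15 in GR cells (SD, n = 3). DBP was 1.24-fold lower in GR+MDFIC cells, a log2 fold of -0.31 ± 0.073 (SE, limma adjusted p = 0.0417), and the arrays did not overlap, as for 32.2% of all transcripts. With vehicle DBP was also lower in GR+MDFIC cells, without a call (-0.14 ± 0.073, SE, limma adjusted p = 0.347). All 3 of its GR+MDFIC Dex arrays were on slide 3 and none of its GR Dex arrays were, so no slide held both. A fit with slide as a block, which links the slides through the other groups, gave -0.29 ± 0.14 (SE, limma adjusted p = 0.784), a fold of about the same size with a wider error and no call. The call was lost in 16 of 26 alternatives (adjusted p from 0.0278 to 0.784). Among the losses was the stricter threshold of 0.01, with the adjusted p unchanged at 0.0417. The 26 alternatives also include the deposited value table, identical to the spot values, and a run with outlier spots kept, which both kept the call. No clock value was flagged as an outlier, so neither could move the DBP fold. PER1 with Dex averaged 0.39 ± 0.036 in GR+MDFIC cells and 0.44 ± 0.085 in GR cells (SD, n = 3), a difference within the spread of the replicates (limma adjusted p = 0.663).

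Several clock genes carried more than 1 probe, and these probes were fitted separately among the 30179 probes past the filter. In GR+MDFIC cells 8 of the 17 clock probes were called with Dex, 3 higher and 5 lower, where 12.9% of all probes were. In GR cells 6 of the 17 were called, 3 higher and 3 lower, where 6.75% of all probes were. Probes of 1 gene share their transcript and are not replicates.

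Both NR1D1 probes fell in both kinds of cells. The dimmer NR1D1 probe, A_24_P250227, read -2.05, -1.99 and -1.72 with Dex in GR+MDFIC cells, against -1.14, -1.06 and -1.37 with vehicle. It read -1.85, -1.87 and -1.96 with Dex in GR cells, against -1.47, -1.32 and -1.44 with vehicle. Its log2 folds were -0.73 in GR+MDFIC cells (limma adjusted p = 0.00153) and -0.49 in GR cells (adjusted p = 0.0186). Within 1 slide they were -0.55 in GR+MDFIC cells (adjusted p = 0.0698) and -0.45 in GR cells (adjusted p = 0.129), so with slide as a block the NR1D1 calls rest on the brighter probe.

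For CRY2, probe A_24_P158587 rose with the brightest one, by 0.46 in GR+MDFIC cells (limma adjusted p = 0.00397) and 0.34 in GR cells (adjusted p = 0.0253) on the log2 scale. It kept both calls with slide as a block, at 0.53 in GR+MDFIC cells (adjusted p = 0.0202) and 0.49 in GR cells (adjusted p = 0.0291). The third CRY2 probe, A_23_P388027, gave -0.25 in GR+MDFIC cells (adjusted p = 0.565) and 0.063 in GR cells (adjusted p = 0.952). Its signal was as low as 1.49 times the local background, and its values with Dex in GR+MDFIC cells ran from -5.38 to -4.19. The average of the 3 CRY2 probes, which lost the call, includes this probe.

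For CRY1 and NR1D2 all probes had negative folds in both kinds of cells. In the fit without slide, signs differed among the PER2 probes in GR cells and among the PER3 probes in both. The second CRY1 probe, A_24_P407235, was called lower in GR+MDFIC cells (-0.46, limma adjusted p = 0.0473) and not in GR cells (-0.23, adjusted p = 0.398). With slide as a block the call in GR+MDFIC cells was lost (-0.53, adjusted p = 0.218). The second NR1D2 probe, A_24_P943472, gave -0.25 in GR+MDFIC cells (adjusted p = 0.121) and -0.13 in GR cells (adjusted p = 0.566), the direction of the brighter probe with no call. The second PER2 probe, A_23_P411162, gave 0.027 in GR+MDFIC cells and -0.087 in GR cells, which leaves the PER2 difference on 1 probe. It was dim, at 1.57 to 2.88 times the local background. With slide as a block it gave 0.082 in GR+MDFIC cells and 0.19 in GR cells. For PER3, probe A_23_P201461 gave -0.43 in GR+MDFIC cells (adjusted p = 0.119) and -0.13 in GR cells. Probe A_24_P230948 gave 0.055 ± 0.34 (SE) in both. Its values with slide as a block were -0.61 in GR+MDFIC cells and -0.31 in GR cells, the sign of the brightest PER3 probe. In that fit A_23_P201461 gave -0.35 in GR+MDFIC cells and 0.012 in GR cells. PER1, CLOCK and DBP had 1 probe each, so their values have no second probe to set beside them.

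**Figure D4:**
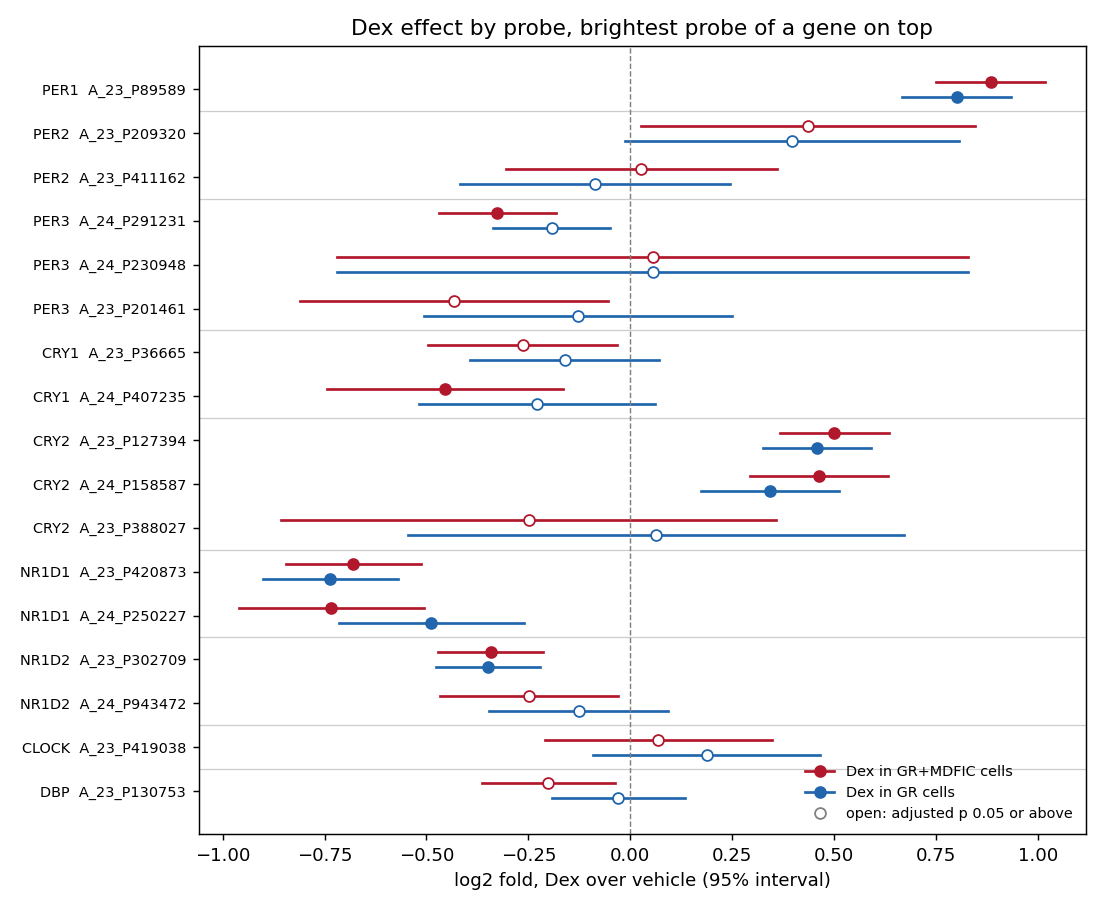
Log2 fold of Dex over vehicle with its 95% interval for each of the 17 clock probes, in GR+MDFIC cells (red) and GR cells (blue); filled points have a limma adjusted p under 0.05 over 30179 probes. Both NR1D1 probes and 2 of the 3 CRY2 probes are called in both kinds of cells, and the widest intervals belong to dim probes of PER3 and CRY2.

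The transcripts whose pattern over the 12 arrays was most like that of PER1 were found by Pearson's r of the log2 values among all tested. They were NM_153819 (r = 0.995), NM_033624 (r = 0.993) and NM_014851 (r = 0.993), given by accession. The 12 arrays share 3 slides and fall into Dex and vehicle arrays with none between for PER1, so r describes that split. The Dex log2 folds of NM_153819 were 0.95 in GR+MDFIC cells and 0.78 in GR cells. Those of NM_033624 were 0.38 in GR+MDFIC cells and 0.37 in GR cells, smaller than the PER1 folds. Those of NM_014851 were 0.80 in GR+MDFIC cells and 0.66 in GR cells.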

How the data were processed

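RNA of 12 COS-1 cultures was measured on one-colour (Cy3) Agilent arrays from 500 ng of total RNA, per the labels' protocols. Each deposited spot value was a linear intensity. Per the file headers, it came from Agilent Feature Extraction (12.0.0.7 for slides 1 and 2, 12.0.3.1 for slide 3) after subtraction of background and spatial trends within each array, with no scaling between arrays. The deposited value table of the series was identical.

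Log2 processed signals were scaled by subtracting, on each array, the 75th percentile over non-control spots. Outlier-flagged spots were left out (34 values among those tested, 0 of them of a clock probe). A probe was kept if some group had it well above background on all 3 arrays and every group had 2 or more usable arrays, which left 30179. Each accession was represented by its probe of highest mean. One group-means model with 8 residual degrees of freedom was fitted to all 12 arrays and all 23757 accessions in limma 3.58.1 (R 4.3.3), with files read by data.table (version 1.17.8). Tests were two-sided, with Benjamini-Hochberg adjusted p under 0.05 as a call. The probe fit was made in the same way. An exact permutation test of 3 against 3 arrays cannot give a p under 0.1 and was not used. The fitting code was run on simulated data with independent noise and no slide effect, which does not test it under the slide layout here. Figures were made with matplotlib 3.10.9 (Python 3.11.15).

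Groups and replicate numbers came from the sample titles, and whether replicates were separate transfections is not given in the sources used here, so p-values measure the spread between these samples, which may be technical. The number of arrays limits the precision. The members, lists and tests were chosen with earlier results of these data known. All members and all their probes are named, with the 3 accessions most like PER1. A wider clock list, cell type markers and the GR and MDFIC transcripts needed gene symbols and were not analysed here. Alternatives were other scalings, normexp background correction (offset 50, on spot medians) with quantile scaling, other filters, averaged probes, slide or replicate number as a block, the compared groups alone, an intensity trend with robust variance, a stricter threshold and leaving out each array. The deposited value table and a run with outlier spots kept were also among them. Leaving out slide 3 was added after seeing the data.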

Additional observations from a re-analysis of the deposited data

How the results depend on the processing

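PER1 and NR1D1 kept their Dex calls and directions under every alternative run. The PER1 log2 fold ran from 0.75 to 0.90 in GR+MDFIC cells (adjusted p 9.46e-07 to 0.00197) and from 0.67 to 0.89 in GR cells (3.00e-06 to 0.00487). The NR1D1 log2 fold ran from -0.73 to -0.61 in GR+MDFIC cells (adjusted p 3.66e-05 to 0.0145) and from -0.82 to -0.61 in GR cells (2.51e-05 to 0.00677). The adjusted p of CRY2 ran from 5.36e-05 to 0.182 in GR+MDFIC cells and from 0.000239 to 0.201 in GR cells, that of NR1D2 from 0.00155 to 0.0783 and from 0.00132 to 0.0719, and that of PER3 in GR+MDFIC cells from 0.00588 to 0.305. The count of clock transcripts called with Dex in GR+MDFIC cells was 5 in the main fit, where 13.5% of all transcripts were called. It was 3 (PER1, CRY2 and NR1D1) with slide as a fixed block, where 3.41% of all transcripts were called. The same 3 were called with the compared groups alone, where 5.23% of all transcripts were. There NR1D2 (adjusted p = 0.0610) and PER3 (0.0594) were lost. DBP in GR+MDFIC cells gained a Dex call without GR Dex replicate 3 (adjusted p = 0.0315). The count called for MDFIC with Dex was 0 in several fits, given here with the share of all transcripts called. They were normexp with quantile scaling (9.8%), no filter on dim probes (2.66%) and the compared groups alone (9.51%). The others were a fixed (0.202%) or a random (0.48%) block for slide, the replicate block (4.73%) and an adjusted p under 0.01 (0.248%). When each array was left out the count was 0 to 1, where 0.401% to 13% of all transcripts were called. DBP lost that call without any 1 of the GR+MDFIC Dex, GR Dex or GR vehicle arrays, and kept it without any 1 of the GR+MDFIC vehicle arrays. Same-numbered replicates did not deviate together (18 pairs, r from -0.24 to 0.14). The replicate block left the Dex counts at 5 in GR+MDFIC cells and 4 in GR cells. In that fit 14.1% and 6.78% of all transcripts were called. Without the arrays of slide 3, chosen after seeing the data, the count in GR cells was 4, where 5.44% of all transcripts were called. No array of GR cells lay on slide 3, so their folds were fixed and only the error estimates could change.

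Signs changed among values that were not called. With slide as a fixed block the difference of the Dex effects was -0.027 for PER1 and 0.0094 for CRY1, the Dex effect of CLOCK in GR+MDFIC cells was -0.10, MDFIC with Dex gave -0.084 for CLOCK, -0.051 for CRY1 and -0.040 for PER3, and MDFIC with vehicle gave -0.061 for CRY1, -0.027 for CRY2 and -0.091 for NR1D1. Under normexp CLOCK gave -0.048 with Dex in GR+MDFIC cells and -0.025 for MDFIC with Dex, and the NR1D2 difference was -0.063. It was -0.014 under median scaling. With averaged probes the differences were -0.050 for CRY2, -0.094 for NR1D1 and -0.058 for NR1D2, and MDFIC with Dex gave -0.023 for CRY2, -0.016 for NR1D2 and -0.045 for PER3. Leaving out each array gave -0.017 to 0.18 for CLOCK with Dex in GR+MDFIC cells, -0.023 to 0.14 for CRY1 with MDFIC in Dex, -0.11 to 0.018 for DBP with Dex in GR cells, and differences of -0.039 to 0.072 for NR1D2 and -0.11 to 0.15 for PER2. The cause was not tested.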
